A study of Mus musculus with 3 samples.

Results

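The ErbB ligands are the secreted or membrane-anchored proteins that bind receptors of the epidermal growth factor (EGF) receptor family. The 10 genes described here are 7 EGF-type ligand genes (Egf, Tgfa, Areg, Ereg, Btc, Hbegf and Epgn) and 3 neuregulin genes (Nrg1, Nrg2 and Nrg4). The rule finds them by symbol and uses no measured value, but the members were chosen with earlier results of these data known. Nrg3, the remaining neuregulin gene, is not among the 10. All 10 were found, each as 1 row with a status of OK in every tumour, among 21881 gene symbols. Total RNA had been sequenced in 3 snap-frozen tumours, 1 from each of 3 mice, which form a single group with no control or normal tissue beside it. The tumours grew from NDL(UCD), a transplantable mouse mammary line of an ErbB2 model that was first expanded in culture. Each mouse, a FVB/NJ female (strain label FVB/N) at an age of 6 to 8 weeks, received 0.1 to 2.0 (1e6) cells in a fat pad, and tumours were collected at a greatest width of 5 to 10 mm. The fat pads had not been cleared, so the host kept its own mammary epithelium, and host stroma and immune cells are part of each sample. As background, the NDL transgene encodes an activated ErbB2 and is driven by the promoter of a mammary tumour virus. All 3 tumours come from 1 line, so tests over them measure the spread between animals that carry it.

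ErbB ligands are made as precursors in the cell membrane and are released by metalloproteases, so that transcript levels do not give the amount of active ligand. The products of Egf, Tgfa, Areg and Epgn bind the EGF receptor, those of Btc, Hbegf and Ereg bind it and ErbB4, and the neuregulins bind ErbB3 or ErbB4. ErbB2 has no known ligand of its own and signals as the partner of a ligand-bound receptor. In the mouse mammary gland Areg is known as the ligand through which oestrogen drives duct growth, while Tgfa and Nrg1 are known for effects on the growing and the alveolar gland.

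Levels are FPKM, fragment numbers divided by the length of the transcript and the size of the library, so that genes can be compared per length. Values are listed for tumours 1, 2 and 3 in that order. Means are given ± SD over n = 3 tumours, and each gene was tested against 1 FPKM, a conventional level, with limma on the log2(FPKM + 0.1) scale. The adjusted p is Benjamini-Hochberg over all 18028 symbols listed above 0 in at least 1 tumour, and calls were made under 0.05.

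Tgfa, which encodes transforming growth factor alpha, was the most abundant ligand transcript in each of the 3 tumours. It lay at 4.40, 6.30 and 5.86 FPKM, a mean of 5.52 ± 0.991 FPKM, and was above 1 FPKM (2.34 ± 0.25 log2 units above, SE; adjusted p = 1.82e-05). The deposited intervals correspond to 522, 718 and 745 fragments, the largest numbers behind any of the 10 genes. The interval of tumour 1, 4.02 to 4.79 FPKM, lay below those of tumours 2 and 3. With GC and length trends removed the values were 5.76, 5.85 and 4.85 FPKM, so that tumour 1 was no longer the lowest.

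Areg, the amphiregulin gene, was at 2.35, 3.58 and 1.69 FPKM (mean 2.54 ± 0.960 FPKM) and was also above 1 FPKM (1.1996 ± 0.29 log2 units, SE; adjusted p = 0.00374). Tumour 2 was the highest and tumour 3 the lowest. Without tumour 2 the level was 0.93 log2 units and the adjusted p 0.117, in a fit that called 8833 symbols above 1 FPKM in all, against 9778 with 3 tumours. Areg had 69, 101 and 53 fragments.

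The other ligand genes of the EGF receptor alone were near the limit of detection. Egf, whose product gave the family its name, was at 0.0671, 0.124 and 0.0418 FPKM, which corresponds to 9, 16 and 6 fragments. Epgn, the epigen gene, was at 0.0905 FPKM in tumour 1 and 0.0422 FPKM in tumour 3, from 4 and 2 fragments. In tumour 2 Epgn was listed at 0, which allows up to 0.0706 FPKM (3 fragments at its own locus). Both genes were below 1 FPKM (adjusted p = 3.26e-06 for Egf and 1.44e-06 for Epgn).

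The genes of the ligands shared by the EGF receptor and ErbB4 were spread from the top to the bottom of the order. Hbegf, which encodes heparin-binding EGF-like growth factor, was second at 3.10, 4.65 and 3.66 FPKM (mean 3.80 ± 0.785 FPKM), and was above 1 FPKM in each tumour and by test (adjusted p = 0.000131). Ereg, the epiregulin gene, was the lowest of all 10 by mean, at 0.0173, 0.0628 and 0.0322 FPKM, from 2, 7 and 4 fragments (adjusted p = 4.58e-07, below).

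Btc, the betacellulin gene, lay on both sides of 1 FPKM, at 2.07, 0.586 and 0.587 FPKM. Only tumour 1 was above that level, with 158 fragments against 43 and 48 in the others. The mean of 1.08 ± 0.857 FPKM was not separated from 1 FPKM (-0.13 ± 0.38 log2 units, SE; adjusted p = 0.766).

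Among the neuregulin genes, Nrg2 was the highest by mean, at 2.62, 2.82 and 4.01 FPKM (3.15 ± 0.747 FPKM; adjusted p = 0.000439, above). Nrg1 was at 2.41, 1.37 and 1.80 FPKM (1.86 ± 0.522 FPKM) and was above 1 FPKM as well (adjusted p = 0.0225). From 0.80 log2 units with 3 tumours, its level moved to 0.61 without tumour 1 (adjusted p = 0.0502) and to 0.99 without tumour 2 (adjusted p = 0.0938). Tumour 3 was the highest for Nrg2 and tumour 1 the highest for Nrg1.

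Nrg4, a ligand of ErbB4 that is known from brown fat in mice, had the smallest relative spread of the 10 genes as deposited (SD of 11.8% of the mean). It lay at 0.505, 0.516 and 0.623 FPKM (0.548 ± 0.0649 FPKM) and was below 1 FPKM as deposited (-0.77 ± 0.28 log2 units, SE; adjusted p = 0.0283), though not when each tumour was rescaled to an FPKM total of 1000000, where it lay 0.59 log2 units above. The level hardly moved when a tumour was left out, while the call was lost at -0.72 log2 units without tumour 1 (adjusted p = 0.0511) and at -0.73 without tumour 2 (adjusted p = 0.199). The locus of Nrg4 overlaps that of Fbxo22 by 4212 bp, and Fbxo22 was at 8.38, 11.6 and 15.9 FPKM. The Nrg2 locus overlaps 4930471G03Rik by 3752 bp, which was at 0.948, 0.0758 and 2.45 FPKM. The strand setting of the counting is unknown here, so the values of Nrg4 and Nrg2 are uncertain to that extent. Nrg3, the remaining neuregulin, was listed at 0 in all 3 tumours, where at the median locus a count of 0 allows up to 0.0435, 0.0452 and 0.0406 FPKM.

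**Figure D1:**
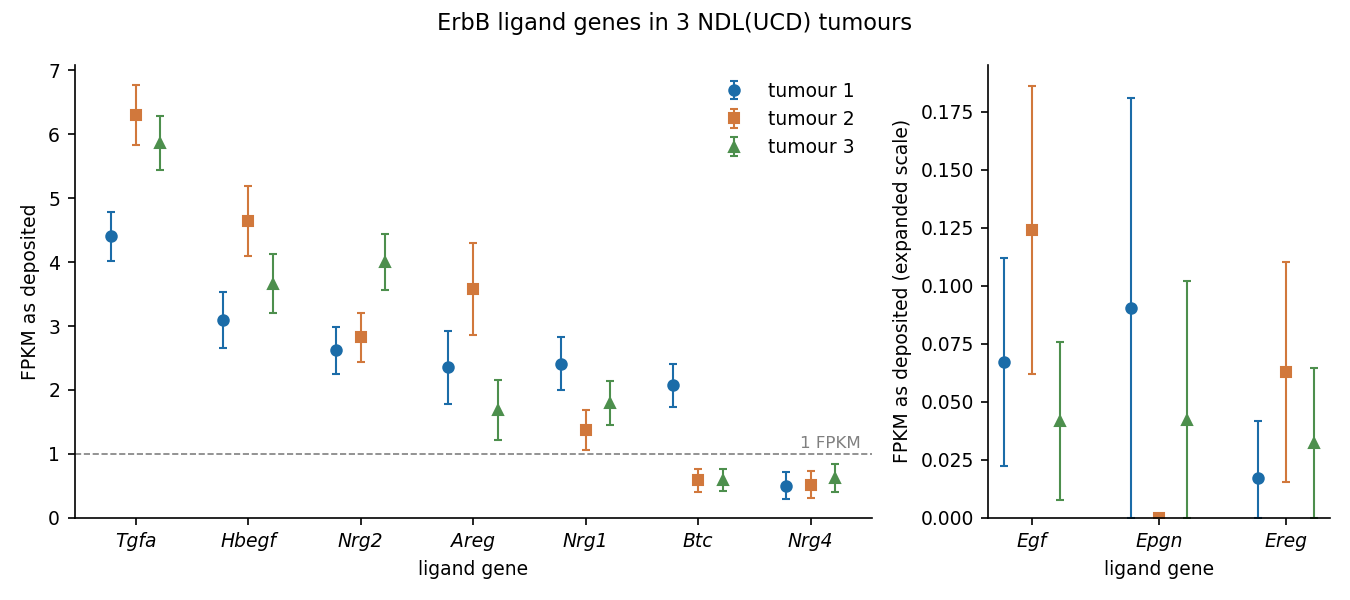
FPKM of the 10 ligand genes (vertical axes, with an expanded scale in the right panel) in tumours 1, 2 and 3, with bars for the deposited intervals, which cover counting error only. Tgfa is the highest gene in each tumour, Btc is high only in tumour 1, and Egf, Epgn and Ereg all stay at or under 0.124 FPKM.

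In all, 5 of the 10 ligand genes were above 1 FPKM and 4 below. Over all symbols tested 54.2% were above and 32.5% below, so the ligands' counts stood near the background. The median ligand level was 0.34 log2 units above 1 FPKM, beside 1.09 over all symbols. The mean of Tgfa stood at the 66.1 percentile of all symbols listed above 0, Areg at 50.7, Nrg4 at 32.1 and Ereg at 13.6. Without tumour 2 the counts were 3 above and 3 below. Over all symbols 8833 were then above and 4748 below, against 9778 and 5864 with 3 tumours. Rescaling to a total of 1000000 raised the median symbol by 1.46 log2 units and gave 6 ligands above and 3 below, with Btc above (1.27 log2 units, adjusted p = 0.0384). With that rescaling 11636 of all symbols were above and 4208 below.

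**Figure D2:**
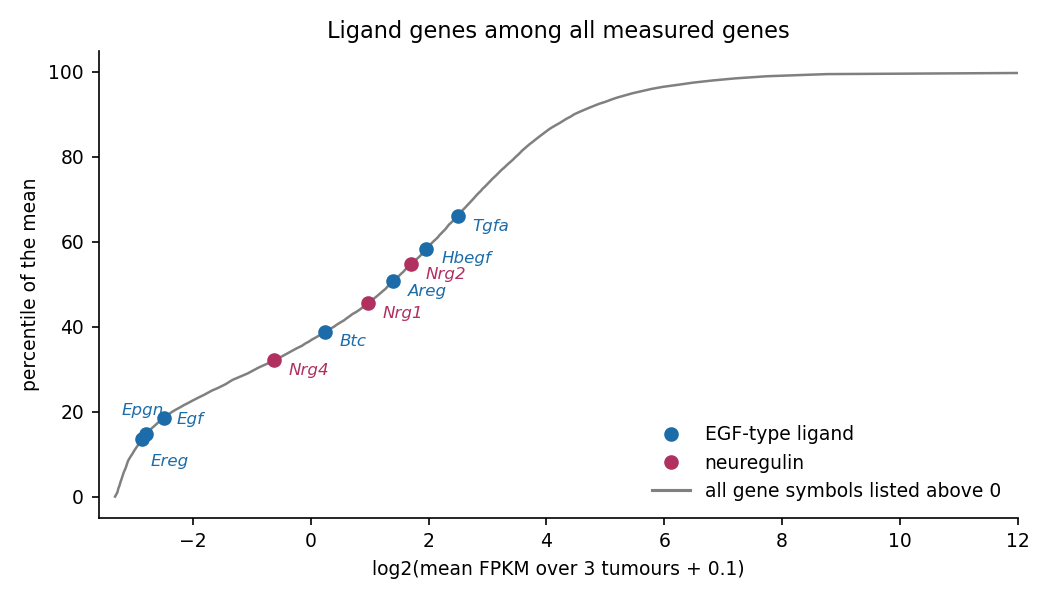
Percentile of the mean FPKM over 3 tumours (vertical axis) against log2(mean FPKM + 0.1) for all gene symbols listed above 0 (grey line), with the EGF-type ligand genes in blue and the neuregulin genes in red. The ligand genes run from Ereg at 13.6 to Tgfa at 66.1, with Areg near the middle at 50.7.

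By mean FPKM the order was Tgfa, Hbegf, Nrg2, Areg, Nrg1, Btc, Nrg4, Egf, Epgn and Ereg. Of the 9 pairs of neighbours in it, only Nrg4 and Egf had ranges over the tumours that did not overlap, with a difference of 1.89 ± 0.45 log2 units (SD, n = 3; exact two-sided sign-flip permutation test, p = 0.25, adjusted p = 0.75 over the 9 pairs). With 3 tumours 0.25 is the smallest p that this test can give. Tgfa exceeded Hbegf in 3 of 3 tumours by 0.53 ± 0.12 log2 units (1.44-fold on the log2(FPKM + 0.1) scale, with the same p), although the lowest Tgfa value was under the highest Hbegf value. Nrg1 also exceeded Btc in 3 of 3 tumours, by 0.93 ± 0.65 log2 units. The other 6 pairs changed order between tumours. Neighbours from Hbegf to Nrg1 thus did not differ beyond their spread, although Hbegf (3.10 to 4.65 FPKM) and Nrg2 (2.62 to 4.01 FPKM) each lay wholly above Nrg1 (1.37 to 2.41 FPKM). The neighbours among Egf, Epgn and Ereg did not differ beyond their spread either, and these 3 genes lay below all others in each tumour.

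Together the 10 ligand genes summed to 17.6, 20.01 and 18.3 FPKM, a mean of 18.7 ± 1.22 FPKM, and with GC and length trends removed to 20.6, 18.8 and 16.2 FPKM. Tumour 2 was the highest as deposited and tumour 1 with the trends removed. Tgfa contributed 25.0%, 31.5% and 32.0% of the deposited sum, Hbegf 17.6%, 23.2% and 19.96%, and Nrg2 14.9%, 14.1% and 21.8%. Btc made up 11.7% in tumour 1 and 2.93% and 3.199% in tumours 2 and 3. Egf, Epgn and Ereg contributed under 1% each in every tumour.

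**Figure D3:**
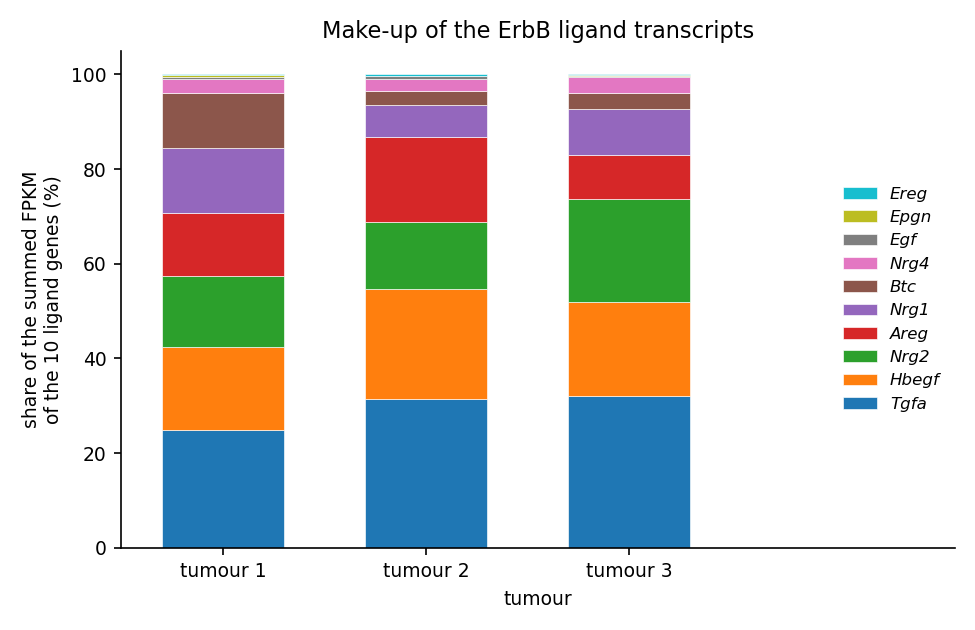
Share of the summed FPKM of the 10 ligand genes (vertical axis, %) taken by each gene in tumours 1, 2 and 3. Tgfa is the largest part of each bar, at 25.0%, 31.5% and 32.0%, and Btc is wider in tumour 1 (11.7%) than in tumours 2 and 3 (2.93% and 3.199%).

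The ligand genes lie on 6 chromosomes, given here on mm9 as in the files. Tgfa is on chromosome 6 (86145245 to 86225443), Nrg1 on chromosome 8 (32928500 to 33028675), Nrg4 on chromosome 9 (55068029 to 55131432) and Egf on chromosome 3 (129380493 to 129458240). Nrg2 (36177312 to 36356814) and Hbegf (36664581 to 36675459) are both on chromosome 18, with 308 kb between them. Epgn, Ereg, Areg and Btc lie in this order within 375 kb of chromosome 5. Epgn is at 91456543 to 91464238, Ereg at 91503643 to 91522675, Areg at 91568641 to 91577458 and Btc at 91786287 to 91831939. No other gene of the files lies between the ends of Epgn and Btc, and the gaps are 39.4, 45.97 and 209 kb.

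Along this cluster the level went from under 0.1 FPKM at Epgn and Ereg in each tumour to 1.69 to 3.58 FPKM at Areg, and Btc followed at 0.586 to 2.07 FPKM. Areg is thus the only gene of the cluster called above 1 FPKM, next to 2 genes called below it. The genes that flank the cluster were also expressed, Mthfd2l at 3.78, 3.08 and 1.89 FPKM on the Epgn side and Parm1 at 10.1, 10.3 and 8.00 FPKM on the Btc side.

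The 250 bases before the annotated start are shown for the 3 cluster genes in the RefSeq promoter table (build GRCm38.p6), because Areg, Epgn and Btc differed in level, and for Tgfa as the highest ligand. Of the 10 ligands 6 matched the table. The sequences run 5′ to 3′ on the strand of the gene. Capitals mark TATAA, TGACGTCA (a cyclic AMP response element) and GGGCGG (a GC box), searched on both strands.
Areg: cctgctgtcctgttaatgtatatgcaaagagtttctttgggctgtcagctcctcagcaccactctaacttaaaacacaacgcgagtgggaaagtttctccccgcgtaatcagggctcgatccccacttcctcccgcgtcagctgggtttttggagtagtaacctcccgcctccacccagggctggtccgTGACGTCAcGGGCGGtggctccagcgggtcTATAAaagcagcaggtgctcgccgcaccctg
Epgn: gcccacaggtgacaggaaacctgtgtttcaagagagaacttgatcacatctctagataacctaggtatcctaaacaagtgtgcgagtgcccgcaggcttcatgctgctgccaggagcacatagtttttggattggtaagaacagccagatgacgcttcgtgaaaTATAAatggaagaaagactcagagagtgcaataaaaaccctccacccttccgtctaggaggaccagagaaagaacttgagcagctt
Btc: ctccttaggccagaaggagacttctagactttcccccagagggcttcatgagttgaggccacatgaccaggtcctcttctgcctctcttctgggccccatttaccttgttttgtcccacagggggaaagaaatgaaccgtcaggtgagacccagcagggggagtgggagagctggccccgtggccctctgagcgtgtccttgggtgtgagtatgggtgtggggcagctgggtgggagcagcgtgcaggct
Tgfa: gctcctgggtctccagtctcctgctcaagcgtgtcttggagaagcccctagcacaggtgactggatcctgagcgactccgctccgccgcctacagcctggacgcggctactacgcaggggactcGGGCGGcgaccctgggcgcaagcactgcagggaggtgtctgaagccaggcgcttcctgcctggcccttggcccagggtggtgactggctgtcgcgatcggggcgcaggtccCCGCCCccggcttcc

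The Areg window (chr5:91139349-91139598, plus strand) held all 3 motifs in close order, TGACGTCA beginning 61 bases before the start, GGGCGG 52 and TATAA 31 bases before it. Of 32851 promoter windows of this length, 22.8% held TATAA, 1.55% TGACGTCA and 32.7% GGGCGG. The Epgn window (chr5:91027267-91027516, plus strand) held TATAA alone, 86 bases before the start, and the Btc window (chr5:91402995-91403244, minus strand) held none of the 3. The Tgfa window (chr6:86194972-86195221, plus strand) held 2 copies of GGGCGG. CpG dinucleotides numbered 15 in the Areg window and 19 in that of Tgfa, but 5 in Epgn and 4 in Btc, beside a median of 6 over all windows. These matches describe the letters only, and no binding or promoter use was measured here.

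Differences between the 3 tumours were tested with Cochran's Q, which weighs them by the deposited standard errors. Genes averaging 1 FPKM or more entered, and a highest-to-lowest ratio of 2 or more was required for a call. This compares the 3 libraries given counting error. Of the 6 ligand genes that entered, Btc and Areg were called, 2 of 6, beside 32.5% of all 11058 genes tested, so the count was near the background. With a minimum mean of 0.1 FPKM Nrg4 entered as well and the same 2 genes were called, beside 35.7% of all genes. All 6 had an adjusted p under 0.05, as had 91.6% of all genes. The median ratio was 1.64 over the 6 ligand genes and 1.74 over all genes tested.

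Btc varied most of the 6, with a ratio of 3.54 between tumours 1 and 2 (adjusted p = 6.78e-16). The transcripts of Btc have a GC content of 42.9%, and when the trends of each tumour with GC content and length were removed the values were 1.43, 0.611 and 0.821 FPKM, a ratio of 2.33. The mean was then 0.953 FPKM, below the limit of the test. Tumour 1 remained the highest. Without it Btc, at 0.586 and 0.587 FPKM as deposited in tumours 2 and 3, was also below that limit and was not tested. The 6 markers listed for hormone-sensing epithelium, of which 2 were called above 1 FPKM and 4 below, had their highest sum in the same tumour. They summed to 16.8, 6.51 and 6.26 FPKM as deposited and to 14.8, 6.35 and 7.02 FPKM with the trends removed. Most of this was the prolactin receptor gene Prlr, at 12.6, 3.74 and 3.28 FPKM. Pgr stayed between 0.0634 and 0.122 FPKM, and Wnt4 and Tnfsf11, both low, were highest in tumour 3. The 4 genes under 1 FPKM were not tested between tumours. Their part in the Btc difference was not tested, and in bulk samples fewer cells of a type and less RNA per cell cannot be told apart.

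Areg differed by a ratio of 2.12 between tumours 2 and 3 (adjusted p = 6.06e-05), and by 2.04 with the trends removed. Without tumour 2 the ratio was 1.395 and without tumour 3 it was 1.52, and neither passed. The basal keratin gene Krt14 had the same order of tumours, at 2.80, 10.4 and 1.07 FPKM, which none of the other 6 listed basal and myoepithelial markers shared. The 7 markers together summed to 24.0, 54.9 and 42.9 FPKM, of which 2 were called above 1 FPKM and 3 below. Most of this sum was Acta2, at 18.3, 41.5 and 38.8 FPKM, and the 3 markers called below were Krt5, Krt17 and Trp63. The part of these 7 markers in the Areg difference was not tested.

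Tgfa, Hbegf, Nrg2 and Nrg1 had ratios of 1.43, 1.501, 1.53 and 1.76 as deposited, under the required 2. For Nrg1 the ratio was 2.17 with the trends removed, at 2.81, 1.29 and 1.66 FPKM, and it was then called (adjusted p = 1.48e-06). With the trends removed Areg and Nrg1 were called among the 5 ligand genes tested, beside 17% of all genes. Nrg1 was also called after median-of-ratios scaling (ratio 2.18). For Tgfa the removal brought tumour 1 up to 5.76 FPKM, beside 5.85 and 4.85 FPKM in the others, so that tumour 1 was no longer the lowest. After median-of-ratios scaling the ratio for Tgfa was 1.15. Removal of the trends turned the order for Nrg2 as well, with tumour 1 then the highest at 3.67 FPKM.

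**Figure D4:**
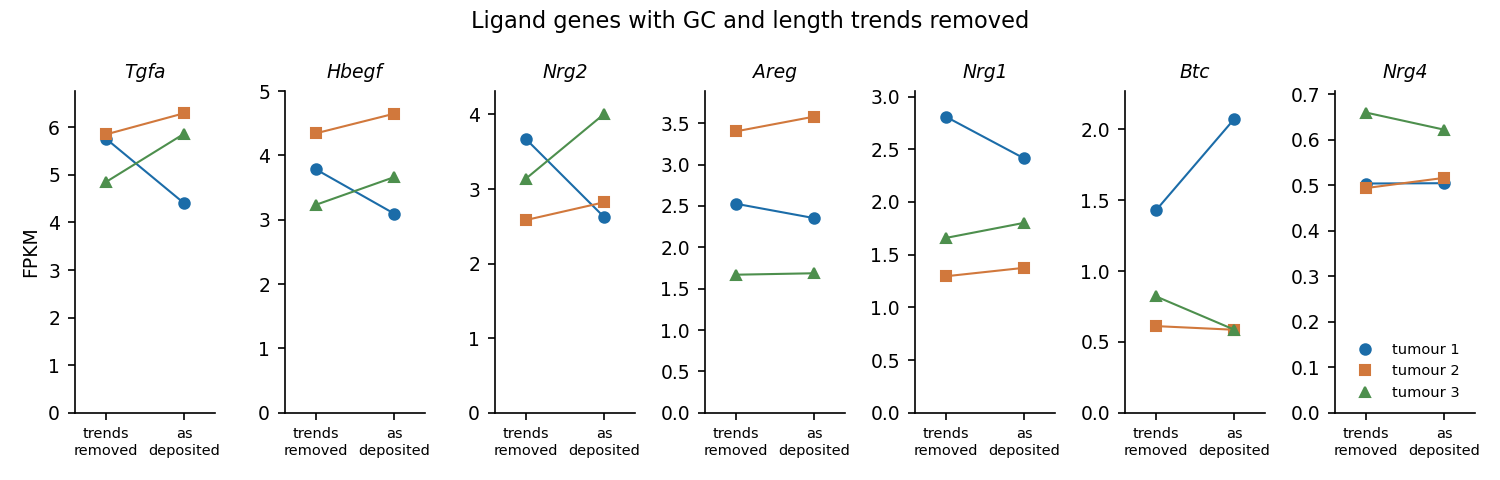
FPKM (vertical axes, 1 scale per gene) of the 7 ligand genes with a mean above 0.5 FPKM in tumours 1, 2 and 3, with GC and length trends removed (left) and as deposited (right). Lines join the same tumour. Btc stays highest in tumour 1 and Areg in tumour 2, while tumour 1 moves up for Tgfa, Hbegf, Nrg2, Nrg1 and, by less, Areg.

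Markers of the cells that these samples could hold were read beside the ligands. The luminal epithelial list, led by Krt18, was above 1 FPKM in 7 of 7 genes and summed to 808, 1194 and 1141 FPKM as deposited. With GC and length trends removed this sum was 1093, 1103 and 918 FPKM, so that tumour 1 was no longer the lowest. Macrophage markers, led by Lyz2 with 8 of 8 above, summed to 258, 471 and 941 FPKM and fibroblast markers, led by Col3a1 with 7 of 7 above, to 177, 298 and 265 FPKM. Endothelial markers (4 of 6 above) summed to 16.02, 24.04 and 24.6 FPKM and adipocyte markers (3 of 6) to 66.5, 47.1 and 204 FPKM. With the trends removed the endothelial sums were 19.4, 22.5 and 21.5 FPKM and the adipocyte sums 47.98, 50.4 and 288 FPKM. Skeletal muscle markers (1 of 5) summed to 28.5, 37.3 and 44.9 FPKM. Nearly all of this was Acta1, at 28.4, 37.3 and 44.9 FPKM, and the other 4 muscle markers were called below 1 FPKM. With the trends removed the muscle sum was 39.3, 34.4 and 35.3 FPKM, highest in tumour 1 instead of tumour 3. T-cell markers (1 of 5 above) summed to 1.68, 4.13 and 8.01 FPKM, and neutrophil markers (2 of 5 found, with Elane listed at 0) to 4.71, 12.9 and 28.1 FPKM. The macrophage, fibroblast, T-cell and neutrophil sums kept their order of tumours with the trends removed. Mast cell markers were above only for Kit (1 of 5, with Ms4a2 listed at 0), keratinocyte markers only for Sbsn (1 of 5 found, with Lor listed at 0), and nerve markers for 2 of 4 found. The highest of the remaining lists were Plvap, Fabp4, Acta1, Cd3g, S100a8, Mbp and, for basal cells, Acta2.

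The salivary gland, which lies near the anterior fat pads and is known in mice for very high Egf, was also checked. Of 9 markers found, Dcpp1, Dcpp2 and Dcpp3 were above 1 FPKM (means of 34.8, 53.5 and 12.04 FPKM), whereas Amy1 averaged 0.189 FPKM, Klk1 0.201 FPKM and Muc19 0.00127 FPKM. The list summed to 48.3, 148 and 111 FPKM, and Egf stayed at or under 0.124 FPKM throughout.

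The EGF-type ligand genes summed to 12.1, 15.3 and 11.9 FPKM, against 5.54, 4.71 and 6.43 FPKM for the 3 neuregulin genes. The EGF-type sum was higher in 3 of 3 tumours, by 1.22 ± 0.41 log2 units or 2.33-fold (SD, n = 3; exact sign-flip permutation test, p = 0.25, the smallest possible). Set against the receptor that they share, the EGF-type sum exceeded Egfr, at 8.99, 10.7 and 10.7 FPKM, in 3 of 3 tumours by 0.36 ± 0.19 log2 units (1.29-fold; exact sign-flip permutation test, p = 0.25). No single ligand gene reached the level of Egfr in any tumour.

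The neuregulin sum was lower than Erbb3, which encodes a receptor of Nrg1 and Nrg2 and was at 20.6, 24.5 and 22.5 FPKM, in 3 of 3 tumours. The difference was -2.01 ± 0.30 log2 units, so the neuregulin sum was 0.249 times Erbb3 (exact sign-flip permutation test, p = 0.25). Nrg4 and Nrg3 are known to bind ErbB4, and their receptor gene Erbb4 rested on 1 fragment in tumour 2 (0.00871 FPKM). It had a value of 0 in the other tumours, which allows up to 0.0251 FPKM in tumour 1 and 0.0235 FPKM in tumour 3. All 10 ligand genes together stood at 17.6 to 20.01 FPKM as deposited, against 189.7 to 199.9 FPKM for Erbb2, the receptor gene that the model carries as a transgene. With GC and length trends removed Erbb2 was at 259, 184 and 156 FPKM, beside 20.6, 18.8 and 16.2 FPKM for the ligand sum. The narrow range of Erbb2 thus holds only as deposited. FPKM per symbol does not separate the transgene from the endogenous gene.

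Of the 22 genes listed for release and maturation of the ligands, 19 were above 1 FPKM and 2 below, beside 54.2% above and 32.5% below over all symbols, with a median of 2.43 log2 units above that level. Nkd2, whose product is known to escort newly made transforming growth factor alpha to the cell surface, was the highest at 15.1, 34.0 and 19.7 FPKM (22.9 ± 9.84 FPKM). Timp1, a metalloprotease inhibitor, followed at 12.8 ± 5.72 FPKM and Rhbdf1, a cofactor of the sheddase ADAM17, at 12.2 ± 1.26 FPKM. The list also holds the inhibitor genes Timp2 and Timp3, and all of these Timp genes were among those above. The lowest were the rhomboid protease genes Rhbdl1 (0.419 ± 0.0494 FPKM) and Rhbdl3 (0.414 ± 0.218 FPKM).

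The sheddase genes themselves are named for their known role and after their values were seen. Adam17, which releases most EGF receptor ligands, was at 14.3, 12.7 and 7.62 FPKM, and Adam10, known for the release of Egf and Btc, at 13.5, 8.85 and 7.38 FPKM. As deposited both were highest in tumour 1 and lowest in tumour 3, and lay above every ligand gene in each tumour. With the trends removed Adam17 was highest in tumour 2 (12.6 FPKM) and Adam10 lowest in tumour 2 (8.92 FPKM). Of 12 adaptor and ubiquitin ligase genes tested 9 were above 1 FPKM and 2 below, beside the same 54.2% and 32.5% over all symbols. Nedd4 (74.6 ± 25.2 FPKM) and Shc1 (15.9 ± 5.00 FPKM) were the highest and Shc3 (0.0238 FPKM) the lowest, while Gab2 had a status other than OK and was not tested.

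**Figure D5:**
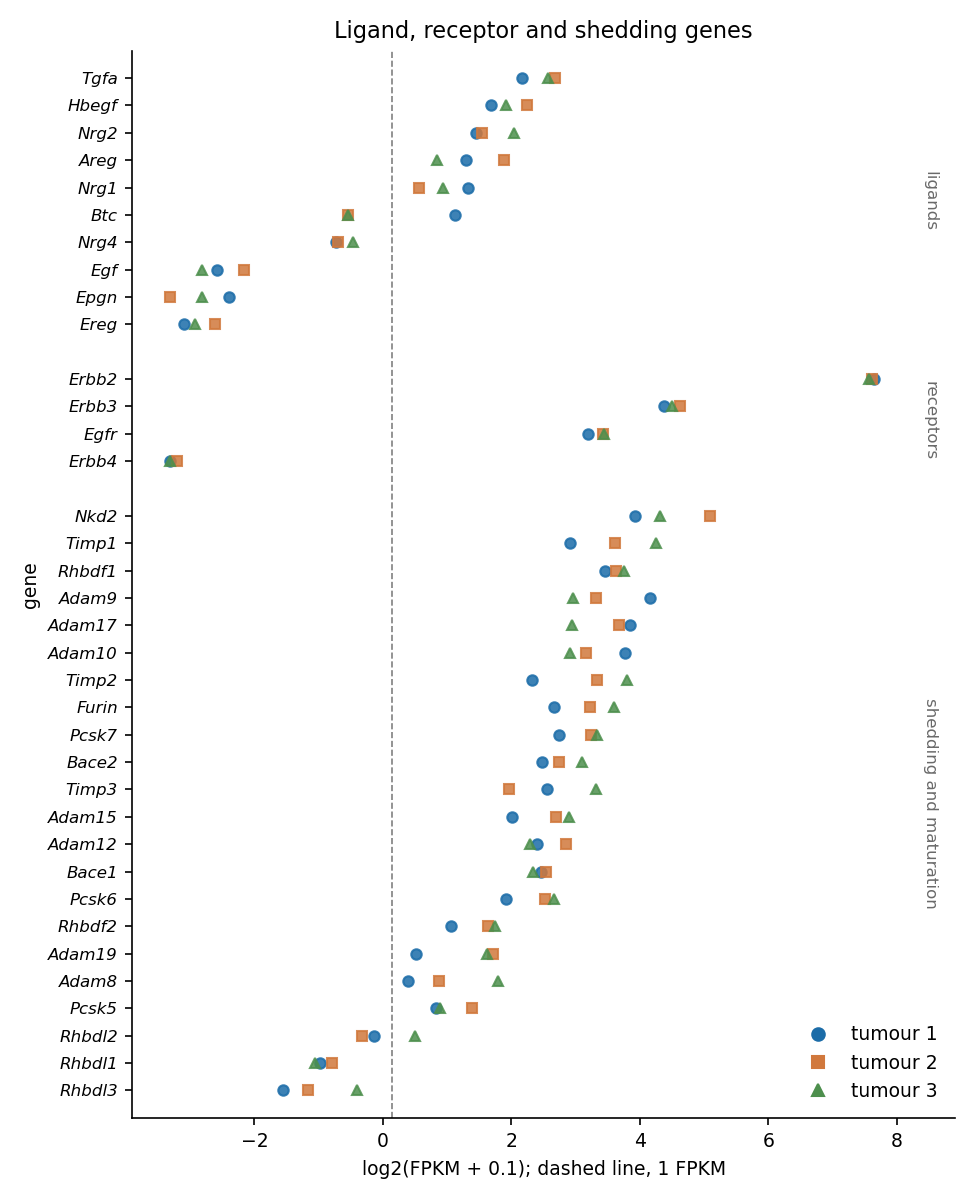
log2(FPKM + 0.1) (horizontal axis) of the ligand, receptor and shedding genes in tumours 1, 2 and 3, ordered by mean within each block; the dashed line marks 1 FPKM. Most genes of the shedding list, which includes the inhibitor genes Timp1, Timp2 and Timp3, lie right of the line, 19 of 22 by test. The ligand genes spread on both sides of it and Erbb4 lies at the left edge.

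For each ligand gene with a mean of at least 1 FPKM the 2 genes with the most similar profile over the 3 tumours were sought among 11192 others, by the largest difference between log2 values centred on each gene's mean. With 3 tumours many genes share a simple profile, so this is a description only. The profiles are of FPKM as deposited, and removal of the GC and length trends changed the order of tumours for Tgfa, Hbegf and Nrg2. Nearest genes were not sought with the trends removed. For Areg the nearest were Bnip3 (25.9, 40.7 and 19.3 FPKM; largest difference 0.034 log2 units) and 1700015E13Rik (0.048), and only 7 genes lay within 0.1. For Btc they were Rock1 (13.7, 4.45 and 4.33 FPKM; 0.034) and Sdccag1 (0.048), with 31 genes within 0.1. For Nrg1 they were 2900062L11Rik (0.023) and Ptprc (0.026), with 27 genes within 0.1. The profiles of Tgfa, Hbegf and Nrg2 were common, with 592, 245 and 295 genes within 0.1, led by Fam192a and Epb4.1l1 for Tgfa, Tgif2 and 1110005A03Rik for Hbegf, and Gm13476 and Rpap1 for Nrg2. No ligand gene was among the 2 nearest of another.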

How the data were processed

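Per the labels' protocols, 50 ng of RNA without ribosomal RNA entered each directional, randomly primed library. The authors deposited FPKM for every gene, each with an interval and a status (per the file headers). TopHat, Cufflinks and mm9 appear in the submitters' processing notes, with no role, version, annotation release or strand setting. Tumours were numbered in accession order; other numbers in the titles are unexplained, so lanes or library batches cannot be told apart from tumours.

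Rows of 221 repeated symbols were added up and 182 symbols with another status were left out. FPKM totals were 318509, 375968 and 364195. The half-width of an interval was taken as 2 standard errors, and the squared ratio of FPKM to that error as fragments. Under 60 fragments, 71.7%, 72.5% and 70.5% of rows lay within 0.02 of a whole number, and the sums were 11.7, 12.4 and 13.4 (1e6 fragments). No count test was run. Floors of 3 fragments and intervals cover counting error only.

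The level test was limma 3.58.1 under R 4.3.3 (intercept-only model, trend, robust moderation), run on log2((FPKM + 0.1)/1.1), a scale that understates changes of low genes. GC and length trends were removed by lowess (span 0.3) with transcript values of GENCODE vM21, matched for 98.2% of symbols by name, never for coordinates. The alternatives were pseudocounts of 0.01 and 1, 2 rescalings, trend removal, a minimum mean of 0.1 FPKM, plain moderation and leaving out each tumour; the Q test also used a ratio of 1.5. The tests were also run on simulated data, with a fixed spread for the level test and counting error only around set ratios for the Q test. The Q simulation held no spread between animals, and neither simulation held GC or length trends, so they do not cover these features of the data. Members, lists and marker genes were chosen with earlier results of these data known. Named genes are all ligands and receptors, Nrg3, the 3 highest and 2 lowest shedding genes, the 2 highest and 1 lowest adaptor, the 2 nearest profiles, and of the marker lists the highest gene and those at 0; any further gene was picked with its values in view.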

Additional observations from a re-analysis of the deposited data

How the results depend on the processing

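Tgfa, Hbegf, Nrg2, Egf, Epgn and Ereg kept their side of 1 FPKM and their call under every alternative in which they were tested, and the 3 contrasts of summed ligands kept their sign. With each tumour rescaled to a total of 1000000, Btc was at 1.27 and Nrg4 at 0.59 log2 units above 1 FPKM, no shedding gene and 1 adaptor gene were called below; with a minimum mean of 0.1 FPKM 1 ligand, no receptor (0) and 1 adaptor were called below, since the lowest genes were not tested, and 2228 symbols in all against 5864. Leaving out each tumour gave 3 to 5 ligands above 1 FPKM, 0 to 1 receptors and 1 to 2 adaptors below, a Btc level of -0.68 to 0.15 log2 units, 3 to 4 neighbour pairs without overlap (fewer tumours narrow the ranges), and 1 ligand called between tumours each time (Areg without tumour 1, Btc otherwise); all genes called between tumours were 632 to 3280 against 3592. Neighbour differences then ran from -0.30 to 0.40 for Epgn minus Ereg, -0.063 to 0.64 for Areg minus Nrg1, -0.10 to 0.58 for Egf minus Epgn and -0.091 to 0.68 for Nrg2 minus Areg. Over all symbols, leaving out each tumour called 8833 to 9880 above 1 FPKM and 4748 to 5404 below. Epgn minus Ereg was -0.23 with a pseudocount of 0.01 and -0.060 with trends removed. Pairs without overlap numbered 2 with median-of-ratios scaling and 2 with trends removed, against 1. A ratio of 1.5 called 5 ligands and 7586 genes, and trend removal called 1872 genes. The cause of these changes was not tested except where stated. Genes with fewer than 20 fragments (Egf, Epgn, Ereg) cannot be ordered at this depth. No paired comparison of conditions was possible because the tumours form a single group. The sign-flip tests used differences between genes within each tumour.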
